A study of Arabidopsis thaliana with 8 samples.

Results

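In the inflorescence stem of Arabidopsis thaliana, 55 genes had a higher transcript level at the base than at the tip in cov mutants and in wild type plants alike, with most of the difference kept in the mutant. They were chosen by measured values. Group means were taken of log2(signal + 12), and a probe set was kept when it had exactly 1 gene, a mean signal over all 8 arrays of at least 50, and a base minus tip difference (called the gradient from here on) of at least 1.5 in each genotype, with the cov value at least 80% of the wild type value. Of 22810 probe sets, 13513 were non-control probe sets with exactly 1 gene, 6050 of these met the signal floor, and 387 of those were at least 1.5 higher at the base in wild type. The 55 members make up 14.2% of the 387, another 320 fell under the 80% share, and 12 kept that share but had a cov gradient under 1.5. A further 72 probe sets with no gene and 1 with several genes met the same values and are not named.

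The samples were hybridised to Affymetrix ATH1 arrays in 4 groups of 2 arrays each: cov stem base, cov stem tip, wild type stem base and wild type stem tip. The mutant cov has altered vascular patterning in the stem, the wild type was the accession Ler-0 from stock NW20, and the labels give neither the allele nor the background of the mutant. All plants were at growth stage 6.10 and had been raised on insecticide-treated compost in a growth room at 22 °C with 65% humidity and 24 hours of light. The labels do not say whether replicates were separate plants, so p-values measure only the spread between these samples, which may be technical.

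The flowering stem of Arabidopsis grows from its tip, where cells divide and expand, while tissues toward the base are older. There the xylem vessels and the fibres between the bundles lay down secondary walls of cellulose, xylan and lignin. COV1, the gene behind the mutant's name, encodes a membrane protein whose loss gives extra vascular tissue in place of the parenchyma between bundles. No probe set was named for COV1 here, so the genotype labels were not checked against it.

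Array medians over the whole table were 41.4 to 50.1, and replicates correlated at r = 0.959 for cov base, 0.978 for cov tip, 0.966 for wild type base and 0.963 for wild type tip across 15923 probe sets (a description across genes). The summed signal of 3 anther and pollen markers out of a list of 15 (AMS, AT5G07230 and AT5G45880) lay between 9.7 and 40.8 on the base arrays and between 967.5 and 1675 on the tip arrays, higher on every tip array than on any base array. Of 13 meristem and cell division markers 3 had a probe set, with sums of 77.6 to 122.2 at the base and 194.9 to 272.3 at the tip. The part of these tissue differences in the gradients was not tested, and in whole stem pieces fewer cells of a type cannot be told apart from less RNA per cell. None of 12 xylem vessel and fibre markers and 1 of 11 phloem markers had a named probe set.

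The members' gradients ran from 1.51 to 4.28 in cov (median 1.95, a 3.87-fold difference) and from 1.51 to 3.96 in wild type (median 2.01, 4.01-fold). Folds are on the log2(signal + 12) scale, which understates the ratio of low signals. In both genotypes 18 members reached a gradient of 2 (4-fold), and 2 members reached 3 (8-fold). The cov gradient was the larger in 16 members and the smaller in 39. Since these values chose the members, they are a description and carry no test. On 54 of 55 members every base array read higher than every tip array, which the choice by gradient made likely, and the exception was AT3G48650.

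**Figure D1:**
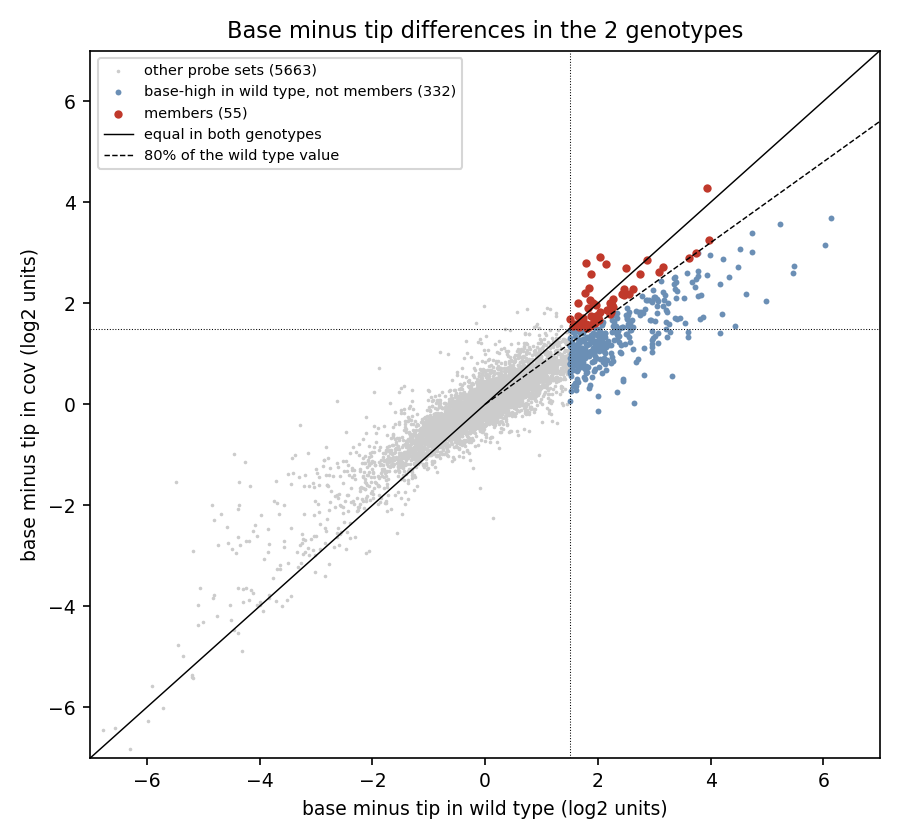
Base minus tip difference in cov (vertical axis) against that in wild type (horizontal axis), both in log2 units, for probe sets with 1 gene and a mean signal of at least 50. The 55 members (red) lie above both dotted thresholds of 1.5 and above the dashed 80% line, while the 332 other base-high probe sets (blue) lie below one of them.

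Values just inside and just outside the thresholds were close. At the 80% share, AT1G67865, ZCF37 and AT3G56360 were inside with ratios of cov to wild type gradient of 0.802, 0.803 and 0.807, and AT1G13470, AT3G47160 and AT3G03870 were outside with 0.795, 0.783 and 0.782. At the cov threshold AT1G25400, AT4G16920 and AT3G48650 were inside with 1.51, 1.53 and 1.55, and AT5G40450, AT5G06610 and UGT87A2 outside with 1.49, 1.49 and 1.47. At the wild type threshold AT3G62260, AT3G48650 and AT1G25530 were inside with 1.51, 1.57 and 1.57, and SP1L5, GSTF4 and AT4G10390 outside with 1.35, 1.26 and 1.26. At the signal floor AT4G22980, AT5G05300 and AT1G66880 were inside with mean signals of 57.4, 61.9 and 61.9, and AT5G59305, AT1G70810 and MSRB5 outside with 47.7, 44.0 and 40.8.

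The steepest gradient belonged to AT3G45160, whose product has no role assigned here. Its signal was 1023 and 919.6 at the base against 39.4 and 37.8 at the tip in cov, and 1236 and 1101 at the base against 73.3 and 57.0 at the tip in wild type. Base and tip were far apart in both genotypes, and the gradient was 4.28 in cov and 3.94 in wild type, or 19.4-fold and 15.4-fold. In wild type alone AT5G18470 was slightly steeper, at 3.96. AT3G45160 met the rule whichever array was left out.

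A run of 3 members on chromosome 1, AT1G67860, AT1G67865 and AT1G67870, were immediate neighbours in the gene order of the TAIR10.1 assembly, the only such run among the members. AT1G67860 read 1023 and 1044 at the base against 125.9 and 126.6 at the tip in cov, and 665 and 521.9 at the base against 166.3 and 107.1 at the tip in wild type. AT1G67865 read 2241 and 2107 against 258.4 and 263.9 in cov, and 3034 and 1666 against 192.1 and 128.3 in wild type. AT1G67870 read 327.9 and 411.9 against 61.9 and 71.2 in cov, and 450.2 and 463.4 against 81.6 and 50.3 in wild type. All 3 were several-fold higher at the base in each genotype, but AT1G67860 had the steeper gradient in cov (2.92, against 2.04 in wild type) and the other two had the steeper gradient in wild type (3.00 in cov against 3.74, and 2.28 in cov against 2.62). The nearest genes with a probe set on either side did not meet the rule. AT1G67855 had signals of only 1.4 to 13.1, with gradients of -0.27 in cov and 0.37 in wild type. Beyond it, the gradients of AT1G67850 were 0.48 in cov and 0.09 in wild type, and on the other side those of AT1G67880 were -0.10 in cov and 0.14 in wild type.

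**Figure D2:**
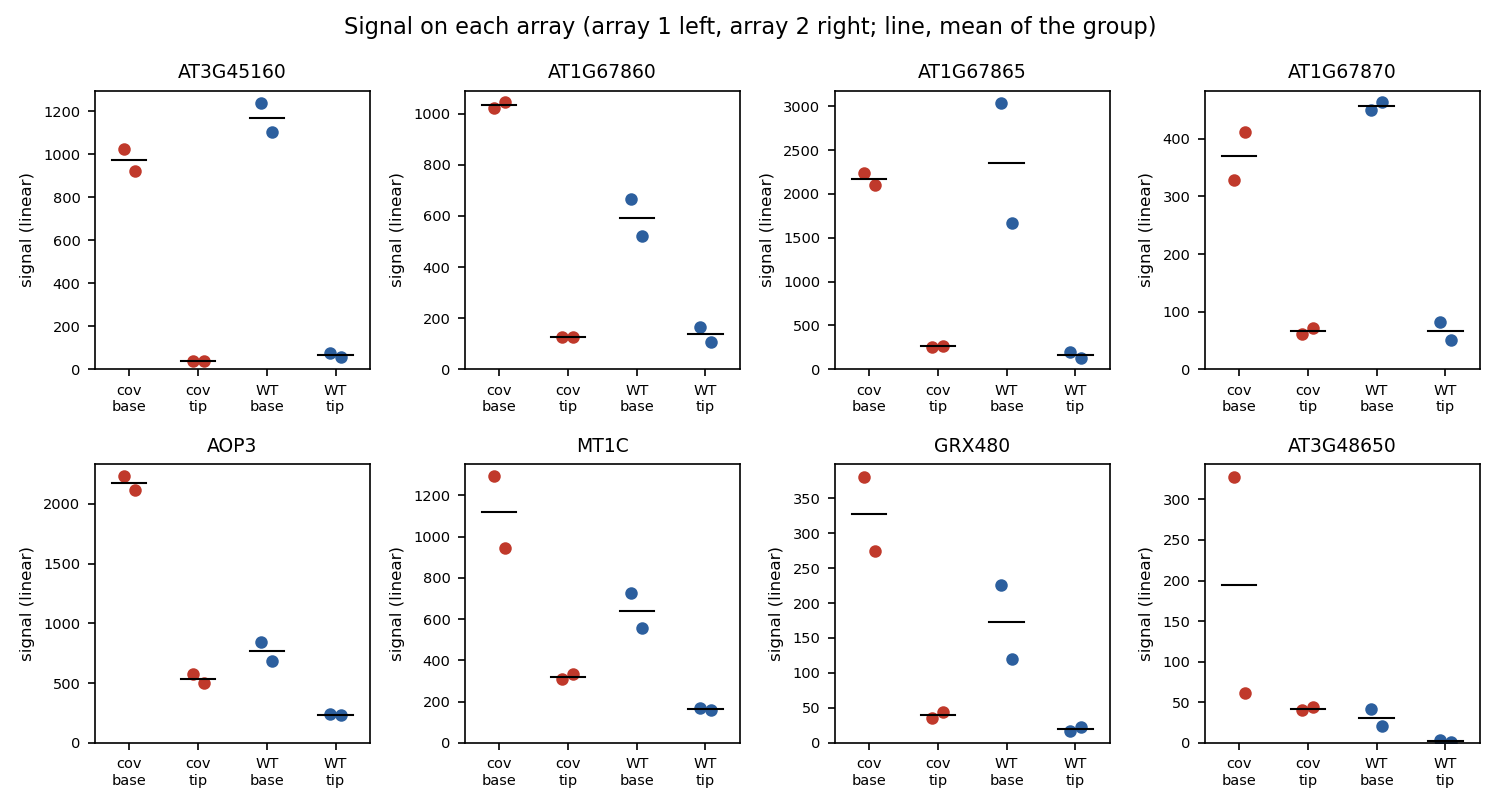
Linear signal on each array (points) with the mean of each group (line) for 8 members, by genotype and stem part. AT3G45160 and the chromosome 1 neighbours are low at the tip in both genotypes, AOP3 and MT1C are higher in cov in both parts, and the cov base arrays of AT3G48650 differ at 327.3 and 61.

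Among members of signalling and protein turnover, 11 in number, gradients ran from 1.53 to 2.71 in cov and from 1.51 to 2.75 in wild type. AT4G00780, which encodes a protein with a TRAF-like domain, read 686.4 and 616.6 at the base against 87.7 and 112.1 at the tip in cov, and 707.9 and 584.7 at the base against 65.7 and 109.8 at the tip in wild type. GRX480 (ROXY19), a glutaredoxin that binds TGA transcription factors and acts between salicylate and jasmonate signalling, read 380.8 and 274.6 against 35.6 and 43.5 in cov, and 225.6 and 119.4 against 16.2 and 22.8 in wild type. AT1G66880, of the protein kinase superfamily, read 196.9 and 99.6 against 24.8 and 19.9 in cov, and 54.0 and 93.6 against 5.4 and 1.2 in wild type. Base and tip arrays of these 3 genes did not overlap in either genotype, which the choice by gradient made likely. Both the base and the tip arrays of GRX480 and AT1G66880 were higher in cov without overlap, narrowly so for AT1G66880 at the base. With 2 arrays in each group, a lack of overlap between genotypes is a description, here and for the members below. Its share over all probe sets was not counted. PUB24, a U-box ubiquitin ligase that dampens immune signalling together with its close relatives, had gradients of 1.72 in cov and 1.73 in wild type, and the smallest spread within groups of any member (SD 0.04 on the log2 scale). The ubiquitin-conjugating enzyme UBC29 had 1.69 in cov and 1.68 in wild type. Further members of this class were the receptor-like cytoplasmic kinase AT3G09830, the leucine-rich repeat receptor kinase AT1G79620, the small GTPase SGP1, the U-box protein AT5G67340, the type 2C phosphatase AT3G62260 and the TIR-NBS-LRR resistance-like gene AT4G16920.

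Members of protein families linked to defence numbered 4. AT5G18470, of the mannose-binding lectin superfamily, read 658.5 and 332.4 at the base against 36.5 and 40.1 at the tip in cov, and 324.5 and 349.2 at the base against 10.2 and 10.5 at the tip in wild type. AT5G40020, a thaumatin family gene, read 305.8 and 498.8 against 44.9 and 53.8 in cov, and 421.1 and 354.4 against 32.7 and 33.0 in wild type. Their gradients were 3.26 in cov against 3.96 in wild type for AT5G18470, and 2.72 in cov against 3.15 in wild type for AT5G40020. The lectin family gene AT1G73040 had the steeper gradient in cov (2.21, against 1.78 in wild type), and the AIG2-like gene AT3G28950 had 1.59 in cov and 1.66 in wild type.

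Among 6 members with wall or secreted products, 4 had the steeper gradient in cov, against 16 of all 55 members. The gradients chose the members and the class was written after the members were seen, so this count carries no test. The serine carboxypeptidase-like gene scpl31 read 482.4 and 251 at the base against 43.2 and 38.5 at the tip in cov, and 382.3 and 403.6 at the base against 96.8 and 64.4 at the tip in wild type. TBL36, of the family of wall polysaccharide O-acetyltransferases, read 695.4 and 828.5 against 109.4 and 124.6 in cov, and 576.4 and 733.1 against 159.4 and 177.6 in wild type. The tip arrays of both genes were lower in cov than in wild type without overlap, and their base arrays overlapped between genotypes. The ratio of the cov to the wild type gradient was 1.29 for scpl31 and 1.38 for TBL36, and it was 1.25 for ATPMEPCRD, of the pectin methylesterase family, and 1.05 for the subtilase gene AT2G39850. The wild type tip signals of ATPMEPCRD were 6.1 and 28.6, and it did not meet the rule without the first of these arrays. The beta-glucosidase gene BGLU33 and the Ole e 1 family gene AT3G26960 had ratios of 0.92 and 0.87.

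Of 5 members in lipid, membrane and transport functions, AT1G73600, a phosphoethanolamine N-methyltransferase gene of phosphatidylcholine synthesis, had the steepest gradients. It read 879.7 and 361.4 at the base against 82.7 and 81.6 at the tip in cov, and 864.8 and 849.8 at the base against 83.1 and 98.2 at the tip in wild type. The tip values nearly coincided between genotypes, and 1 of the cov base arrays matched the wild type bases while the other was lower. AT1G72700 and ACA.l (AT1G13210), both of the P4-type ATPases that move phospholipids across membranes, had gradients of 1.90 and 1.75 in cov, against 1.83 and 1.96 in wild type. AT2G39420, of the alpha/beta hydrolases, had 2.06 in cov and 1.86 in wild type, and the amino acid transporter family gene AT1G25530 had 1.59 in cov and 1.57 in wild type.

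Small-molecule enzymes and a metal-binding protein made up 5 members. AOP3, a dioxygenase that modifies glucosinolate side chains and whose expression is known to differ between Arabidopsis accessions, read 2234 and 2116 at the base against 576.2 and 497.3 at the tip in cov, and 847.7 and 684.2 at the base against 240 and 230.2 at the tip in wild type. MT1C, a metallothionein, read 1295 and 944.3 against 307.2 and 333.3 in cov, and 725.2 and 555.8 against 167.4 and 161.1 in wild type. For both genes cov arrays were above wild type arrays of the same stem part without overlap. The methyltransferase family gene AT1G55450 read 216 and 206.6 against 55 and 74.2 in cov, and 162.4 and 151.2 against 33.9 and 35.3 in wild type, again with no overlap between genotypes. The methyltransferase family gene AT3G61210 had gradients of 2 in cov and 2.21 in wild type, and AT1G75280, an isoflavone reductase-like gene, had 1.78 in cov and 2.01 in wild type.

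The remaining 24 members have no role assigned here, and 2 of them, AT2G24160 and AT3G48650, are transcribed pseudogenes in the RefSeq annotation. AT1G11210 read 190.3 and 122.7 at the base against 10.7 and 11.1 at the tip in cov, and 157.9 and 120.5 at the base against 8.1 and 9.1 at the tip in wild type, with gradients of 2.85 in cov and 2.86 in wild type. AT3G19370 read 240.9 and 233.8 against 34.7 and 43.7 in cov, and 312.2 and 231.4 against 51.8 and 28.4 in wild type. ZCF37 read 228.2 and 56.3 against 5.1 and 5.3 in cov, and 209 and 147.3 against 2.8 and 4.0 in wild type. The groups of AT1G11210 and AT3G19370 overlapped between genotypes at the base, and for ZCF37 the cov base arrays spanned the wild type ones. AT4G23610 read 412.5 and 127.5 against 38.7 and 44.6 in cov, and 143.5 and 119.2 against 11.1 and 13.9 in wild type, so that its tip arrays were higher in cov without overlap. AT2G42760 had the highest ratio of cov to wild type gradient, 1.56 (2.80 in cov, 1.79 in wild type).

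**Figure D3:**
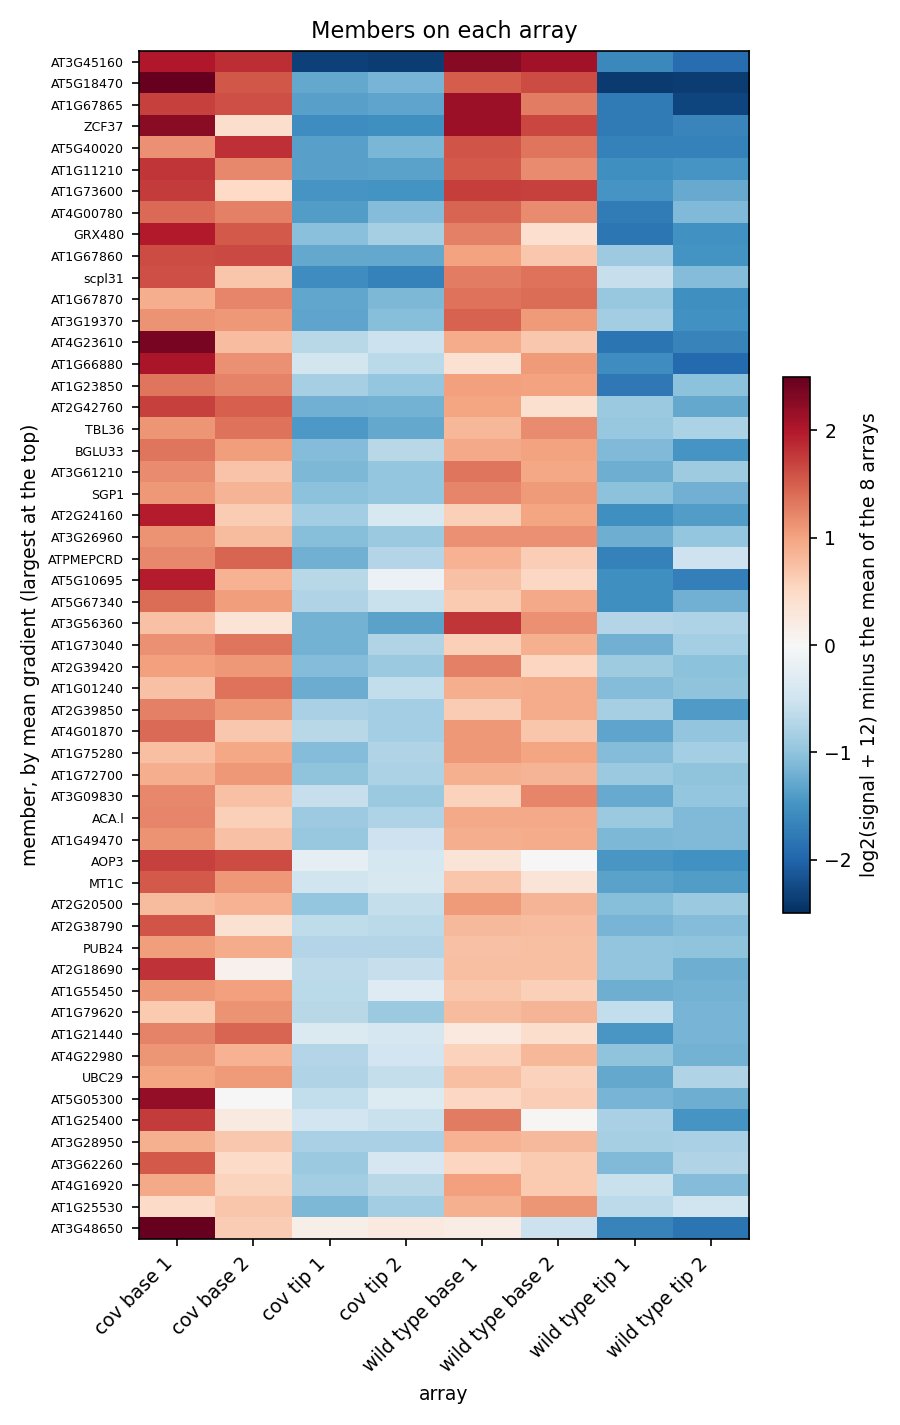
Each row is a member, ordered by its mean gradient, and each column an array. Colour is log2(signal + 12) minus the mean of the 8 arrays (red higher, blue lower). In 54 of the 55 rows all 4 base arrays are above the row mean and all 4 tip arrays below it, the exception being AT3G48650, and the second cov base array is paler in part of the rows.

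The members did not include the secondary wall genes that could be named. Members were only 14.2% of the 387 base-high probe sets, so most base-high genes of any kind were not members. Of 20 entries for secondary wall cellulose and xylan 3 had a probe set, all base-high in wild type, and their cov to wild type ratios were under the 80% share. IRX15, needed for xylan in secondary walls, had a gradient of 3.07 in cov and 4.52 in wild type (ratio 0.678). IRX15-L had 2.29 in cov and 3.37 in wild type (0.678), and the xylan gene GUT2 had 2.51 in cov and 3.36 in wild type (0.747). Of 24 lignin and monolignol entries 4 were tested and 2 were base-high in wild type, HCT with a ratio of 0.571 and BGLU45 with 0.455. PRX52 and BGLU46 were under the wild type threshold (gradients of 1.02 and 0.90) and had steeper gradients in cov (1.14 and 1.37). Of 23 senescence and sugar starvation entries 5 were tested, and WRKY53 (ratio 0.651) and PPDK (0.495) met the signal floor and the wild type threshold without keeping 80%. The cov base arrays of WRKY53 read 542.5 and 109.7, above and below the wild type base arrays at 267.9 and 274.4. Its ratio thus rests on 2 unlike arrays, and its place under 80% was not firm. No member stood in any of the 16 gene lists. Few of their entries could have been members, since most had no named probe set or were not base-high in wild type. None of the 24 secondary wall regulators had a probe set. The lack of members in the lists is therefore a description with little weight. The 320 base-high probe sets under the 80% share had a median ratio of 0.574, with median gradients of 1.21 in cov and 2.09 in wild type.

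For part of the members, meeting the rule depended on 1 cov base array. Across the members the first cov base array exceeded the second in 40 of 55, by a median of 0.24 on the log2 scale, and by at least 2-fold in 11, while in no member was the second 2-fold above the first. Such a 2-fold difference between replicates was found in 20% of members for cov base, 0% for cov tip, 1.82% for wild type base and 1.82% for wild type tip. Over all tested probe sets the shares were 2.74% for cov base, 0.672% for cov tip, 2% for wild type base and 1.51% for wild type tip. The members, unlike all probe sets, were chosen partly for a high cov base mean, which a high value on 1 array helps to reach. The 11 genes were ZCF37, AT1G73600, AT4G23610, AT2G24160, AT5G10695, AT2G38790, AT2G18690, AT5G05300, AT1G25400, AT3G62260 and AT3G48650. The cause of this difference between arrays was not tested.

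**Figure D4:**
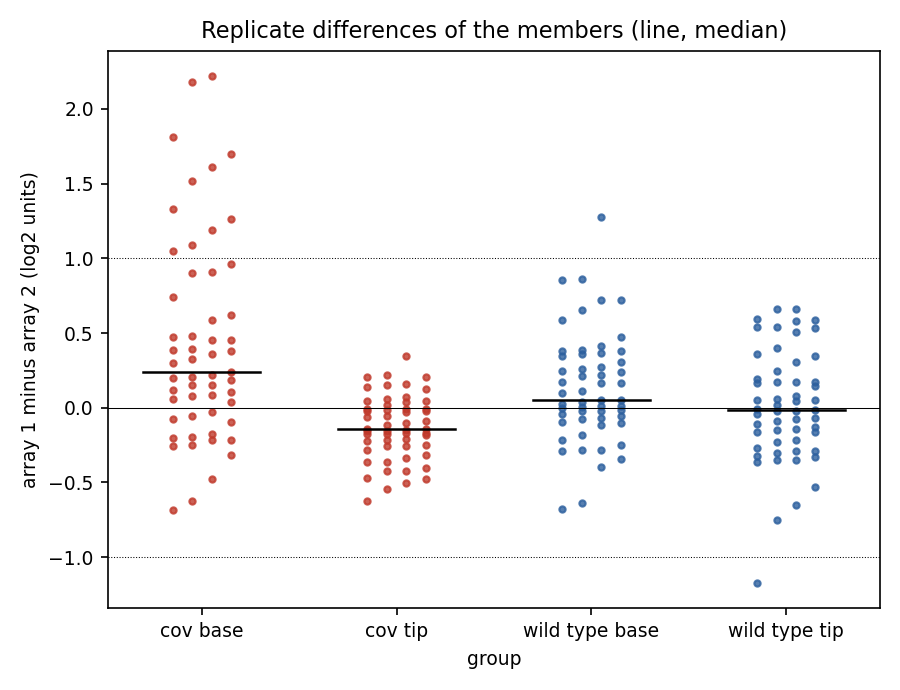
Difference between the first and the second array of each group, in log2 units, for the 55 members (points) with the median (line). Dotted lines mark 2-fold. In cov base 11 members exceed 2-fold, all with the first array higher, against none in cov tip and 1 in each wild type group.

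With the first cov base array left out, 30 of the 55 members still met the rule and 25 did not, and 14 other genes came in. With only the second cov base array, the cov gradient was under 1.5 in 16 members and the median ratio to the wild type gradient was 0.853, against 1.04 with only the first. For AT5G05300 the gradient in cov was 2.67 by the first cov base array and 0.49 by the second, and for AT3G48650 it was 2.65 and 0.44. With the second cov base array left out 3 members dropped out. The other omissions removed 11 members without the first cov tip array, 3 without the second, 8 without either wild type base array, 12 without the first wild type tip array and 8 without the second. In all, 18 members met the rule in every one of the 8 omissions. They were AT3G45160, AT1G11210, AT4G00780, GRX480, AT1G67860, scpl31, AT3G19370, TBL36, BGLU33, SGP1, AT1G73040, AT2G39420, AT1G01240, AT2G39850, AT1G75280, AT1G72700, MT1C and PUB24.

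The mean of the cov minus wild type differences at tip and base was not itself a value of the rule, beyond the floor on signal. It was tested with limma over all 15923 probe sets with Benjamini-Hochberg adjustment. It does share the cov base arrays with the cov gradient. A high reading on 1 cov base array helps a gene to meet the rule and raises this difference too. Replicates differed 2-fold in 20% of members for cov base and 0% for cov tip. The members' share of calls is therefore not free of how they were chosen. Of the 55 members 9 were higher in cov (16.4%, against 3.33% of all probe sets tested), 1 was lower (1.82%, against 1.3%) and 45 were not called. Among the 11541 tested probe sets with a mean signal of at least 50, the shares were 4.14% higher and 1.62% lower. Among the 320 base-high probe sets that kept less than 80% of the gradient, 11.6% were higher and 8.12% lower. The members' median difference was 0.26, with 40 positive and 15 negative, against a median of 0.02 over all probe sets tested. At the tip alone the members' median difference was 0.25 and at the base 0.18, against 0.01 and 0.02 over all probe sets tested. In both parts 34 members were higher in cov and 5 lower. The rule favoured the same sign in both parts, and the share with the same sign over all probe sets was not counted. Of the 55 members 4 met the signal floor of 50 only through the cov arrays, and none only through the wild type arrays. They were AT3G48650 (mean signal 118 in cov and 16.4 in wild type), AT1G66880 (85.3 in cov and 38.5 in wild type), AT5G05300 (83.5 in cov and 40.4 in wild type) and AT4G22980 (65.3 in cov and 49.4 in wild type). The floor favoured a higher level in cov for these 4, of which AT3G48650 and AT1G66880 were called. Among the other 51, with the floor met in each genotype (a setting added after the data were seen), 7 were higher in cov (13.7%) and 1 was lower, against 3.85% higher and 1.4% lower of 10982 tested probe sets that met the same floor. Of the cell type markers tested, SWEET11 and WSD1 were called higher in cov. The anther and pollen marker AT5G45880 was called lower (difference -1.22, adjusted p = 0.0309 by limma). AMS, AT5G07230, HTR12, TSO1 and RCA were not called, with differences from -0.256 to 0.125. SWEET11, a sugar transporter of phloem parenchyma and the only 1 of 11 phloem markers with a probe set, read 943.5 and 853.8 at the base against 609 and 870.7 at the tip in cov, and 469.8 and 211.3 at the base against 200.3 and 251.5 at the tip in wild type (difference 1.56, adjusted p = 0.00222 by limma). WSD1, a wax ester synthase and the only 1 of 13 epidermis and cuticle markers with a probe set, read 46.2 and 42.3 against 291 and 238.2 in cov, and 0.4 and 1.3 against 387.3 and 312.8 in wild type (difference 0.87, adjusted p = 0.00363 by limma). SWEET11 was higher in cov in both stem parts without overlap, and WSD1 was higher in cov at the base and lower at the tip. The part of these tissues in the members' genotype difference was not tested. The members' differences at the tip alone and the base alone share the group means the rule used and carry no test.

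AOP3 was 2.5-fold higher in cov (95% limits 2.12 to 2.95, adjusted p = 0.000102 by limma), and all 4 cov arrays lay above the wild type arrays of the same stem part. AT1G21440, with no role assigned here, was 1.95-fold higher (1.65 to 2.31, adjusted p = 0.000723 by limma). Its signal was 2693 and 3107 at the base against 875.8 and 839.5 at the tip in cov, and 1341 and 1522 at the base against 405.3 and 497.8 at the tip in wild type. MT1C was 1.8-fold higher (1.48 to 2.20, adjusted p = 0.00409 by limma). The cov minus wild type difference was 1.5 at the base and 1.15 at the tip for AOP3, 1.01 and 0.91 for AT1G21440, and 0.79 and 0.91 for MT1C. The rule favoured genes with like gradients in the 2 genotypes, and so with like differences in both stem parts. That likeness is a description and carries no test. The calls of these 3 genes held under each of the 18 alternatives run, with adjusted p of at most 0.00131, 0.00706 and 0.0256.

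**Figure D5:**
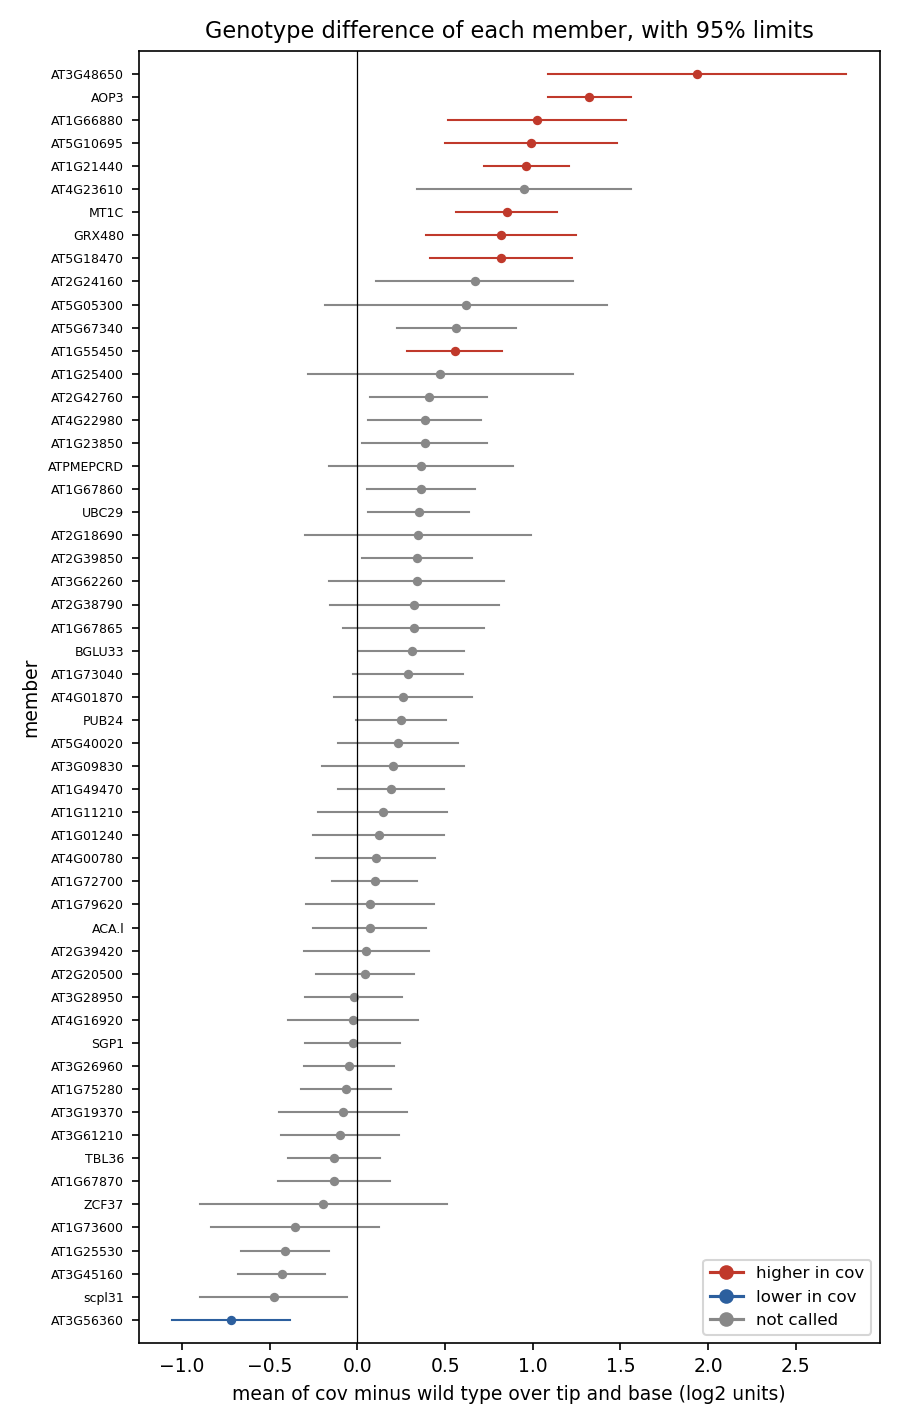
Mean of the cov minus wild type differences at tip and base (points, log2 units) with 95% confidence limits (lines) for each member, in order of size. Of the 55 members 9 are higher in cov (red), 1 is lower (blue) and 45 are not called (grey).

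The other calls were less firm. AT3G48650 had a difference of 1.94 ± 0.38 on the log2 scale (SE, adjusted p = 0.0176 by limma), with signals of 327.3 and 61 at the base against 40.3 and 43.5 at the tip in cov, and 41.2 and 20.3 at the base against 2.8 and 1.2 at the tip in wild type. Its wild type tip signals were near 0, so the difference moved with the pseudocount: it was 3.07 with a pseudocount of 1 and 1.12 with one at the table median, where AOP3 had 1.25. AT1G66880 rose by 1.02 ± 0.23 (adjusted p = 0.0311 by limma), and by 1.8 with a pseudocount of 1 and 0.56 at the table median. AT5G10695, with no role assigned here, read 355.8 and 160.2 at the base against 46.7 and 73.5 at the tip in cov, and 146 and 123.5 at the base against 20.9 and 17.2 at the tip in wild type, a difference of 0.99 ± 0.22 (adjusted p = 0.0309). GRX480 rose by 0.82 ± 0.19 (adjusted p = 0.0380), AT5G18470 by 0.82 ± 0.18 (0.0309, and by 0.50 with a pseudocount at the table median) and AT1G55450 by 0.56 ± 0.12 (0.0295). The lowered member was AT3G56360, with 448.7 and 341.6 at the base against 111.8 and 99.1 at the tip in cov, and 954.2 and 601.7 at the base against 157 and 151.8 at the tip in wild type. It fell by 0.72 ± 0.15 (adjusted p = 0.0237 by limma), and its cov arrays were below the wild type arrays in both parts without overlap.

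Each of these 7 calls was lost in 5 or more of the 8 omissions, with adjusted p from limma between 0.0534 and 0.145 in those. AT3G48650 lost its call without any 1 of the tip arrays or the second wild type base array (0.0582 to 0.0805). AT1G66880 lost its call without any 1 of the tip arrays, the first cov base array or the first wild type base array (0.0558 to 0.121), and GRX480 without any 1 of the tip arrays, the first cov base array or the second wild type base array (0.0634 to 0.137). AT5G18470 did so without any 1 of the tip or wild type base arrays (0.0765 to 0.111). AT5G10695 kept its call without the first cov tip array or the second cov base array and lost it in the other omissions (0.0534 to 0.125). AT1G55450 kept its call without the first cov tip array alone (0.0577 to 0.145 otherwise), and AT3G56360 kept it without the first cov base or second wild type base array (0.0612 to 0.0955 otherwise). Without the first cov base array 5 members were higher in cov (AT5G18470, AOP3, MT1C, AT1G21440 and AT3G48650) and 3 were lower, AT3G56360, scpl31 (-0.70 ± 0.15, adjusted p = 0.0321) and AT1G73600 (-0.67 ± 0.12, adjusted p = 0.0126). The median difference of the members was then 0.10, and 2.81% of all probe sets were higher and 1.04% lower.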

How the data were processed

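The deposited table holds 1 column for each of 8 ATH1 arrays, with 0 columns of no sample. The deposited intensity values are linear MAS5 signals according to the submitters' processing notes, whose version was not stated. The authors' values had a trimmed mean of 100.0 on every array (2% left out at each end) and were not normalized further. No depth applies, and the number of arrays limits the precision. Of 22810 probe sets 64 were controls, 13513 had 1 gene, 503 several and 8730 none. Names were updated through the RefSeq annotation of TAIR10.1, for 13436 probe sets by gene identifier and 48 by locus tag, and 29 kept the earlier name. All 55 members were matched, 53 and 2 in these ways, and each is another locus.

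A pseudocount of 12 was added before log2. Probe sets with a mean signal under 21.36 (the 30th percentile) were left out of the test, which all members passed. limma 3.58.1 in R 4.3.3 was fitted to 4 group means (lmFit, eBayes with a variance trend, 4 residual degrees of freedom), with a threshold of 0.05, two-sided. On data simulated at 15923 probe sets it recovered 30% of genes changed 1.5-fold in both stem parts, 76% at 2-fold, 96% at 4-fold and 98% at 8-fold, and 7 of 157 calls were unchanged probe sets. The simulated noise was normal, with the same spread in all 4 groups for each gene. Among the members the cov base replicates differed more than the others, so these shares may not hold for them.

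The members, the gene lists and the tests were chosen with earlier results of these data known. The role classes were written after the members were seen. Values are given on every array for the 15 members of largest mean gradient and those called for the genotype difference, and for TBL36 in addition. TBL36 and the members named only through their role class were chosen after their values were seen. Members at each threshold and of extreme ratio are named too, as are list genes. No family searched by symbol held 3 members, but 43 of the 55 members are named only by their locus, which such a search can miss. It found no kinase, though the members named above include kinase family genes. Promoter sequence was not used here.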

Additional observations from a re-analysis of the deposited data

How the results depend on the processing

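The number of members was 55 and stayed within 1.5 times of it with a pseudocount of 1 (59, of which 42 shared), 0.25 of the table median (55), median centring (57) or quantile normalization (59). It was 28 with a pseudocount at the table median of 47.4 (24 shared), 18 with a gradient of at least 2, 29 with at least 90% kept, and 44 to 77 when arrays were left out in turn. Members higher in cov numbered 9, against 4 with the pseudocount at the table median, 3 without the filter on dim probe sets, 6 without the variance trend and 7 after median centring, and 3 to 13 over omissions. Members lower in cov numbered 1, against 0 without the filter or without the trend, 2 with a pseudocount of 1 or a filter at 50, and 0 to 3 over omissions. With the signal floor asked of each genotype, an alternative chosen after seeing the data, 7 were higher and 1 lower. No called difference changed sign in any alternative. Median centring moved the whole-table split to 408 higher and 254 lower, against 530 higher and 207 lower. Without the filter it was 358 and 126, and over omissions 268 to 555 higher and 70 to 207 lower, with the lowest counts without either cov tip array (269 and 70, 268 and 105). The cause of these changes was not tested, except that more probe sets share the adjustment without the filter (22746). Same-numbered arrays did not pair by the check run: deviations from the group means correlated between -0.0433 and 0.162 over the 6 pairs of groups. With a replicate block 9 members were higher and 3 lower.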
